A study of Mus musculus with 36 samples.

Results

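The ephrin, Slit-Robo and netrin guidance genes were 34 genes, chosen by symbol out of the 52636 genes with counts in the series. The choice used no cut on their values but was made with earlier results of these data known. The 34 genes comprised 8 EphA and 5 EphB receptors, 5 ephrin-A and 3 ephrin-B ligands, 3 Slits, 3 Robo receptors, netrin-1 and 6 netrin receptors. RNA was sequenced from cells of juvenile mice carrying S100β-GFP and NG2-dsRed transgenes. GFP follows the S100b promoter and dsRed the promoter of Cspg4, the gene for NG2. Both transgenes were present in every mouse, and diaphragm, pectoralis, forelimb and hindlimb muscles of 1 animal (P15 to P21 in the study's methods, while the upper ages in the labels climb with the library number up to P46 and are not used here as ages) gave a replicate. Cells were separated by FACS into S100β-GFP+;NG2-dsRed+ perisynaptic Schwann cells (PSCs, 9 libraries), S100β-GFP+ Schwann cells (8 libraries) and NG2-dsRed+ cells (10 libraries), and the comparisons ask how the 3 sorted populations differ. Because the gates follow the 2 reporters alone, any other cell in which one of these promoters is active falls into the same gate.

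Eph receptors are receptor tyrosine kinases whose ligands, the ephrins, are held on the surface of the neighbouring cell, so that signals pass in both directions where cells touch. Slits are secreted and bind Robo receptors, and netrin-1 is a secreted, laminin-related protein that attracts through Dcc and neogenin and repels through the Unc5 receptors. These systems are best known for steering growing axons, and the same ligands and receptors guide blood vessels and the migration of Schwann cells.

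Counts on genes lay between 5221655 and 9592875 per library, and levels are given as counts per 1000000 (CPM) after TMM scaling. PSC libraries carried the markers of their label. Sox10, a Schwann lineage transcription factor, was at 379 to 703 CPM in PSCs, and Cspg4 at 503 to 965 CPM. In the S100β-GFP+ libraries Sox10 was only at 5.57 to 38.8 CPM and S100b at 9.88 to 40.9 CPM, while 7 fibroblast markers summed to 23952 to 52406 CPM, against 1529 to 4631 CPM in PSCs and 2831 to 24690 CPM in NG2-dsRed+ cells. These libraries are therefore called S100β-GFP+ cells below. Macrophage and leukocyte markers (8 genes) summed to 435 to 3285 CPM in S100β-GFP+ cells and to at most 26.8 CPM elsewhere. In NG2-dsRed+ libraries, 10 pericyte and smooth muscle markers summed to 7333 to 15923 CPM and 10 endothelial markers to 1792 to 4266 CPM. Endothelial markers reached 1027, 3272 and 1742 CPM in S100β-GFP+ libraries 14, 17 and 22, but 146 to 236 CPM in the other 5, and lay at 165 to 795 CPM in PSCs. The part of these other cells in any result was not tested, and in sorted bulk RNA fewer cells of a type and less RNA per cell cannot be told apart.

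Of the 34 genes, 28 had enough counts to be tested. In the edgeR quasi-likelihood test with Benjamini-Hochberg adjustment over 15330 genes, PSCs exceeded S100β-GFP+ cells for 4 of the 28 genes and fell below them for 11, where 22.9% and 24.1% of all genes were (47% in either direction). Against NG2-dsRed+ cells, 6 were higher and 15 lower in PSCs, beside 20.9% and 23.1% of all genes (44% in either direction). Between S100β-GFP+ and NG2-dsRed+ cells, 6 were higher and 11 lower in the former, beside 18.1% and 15.2% of all genes (33.3%). The median log2 fold change of the 28 genes was -0.65 for PSCs over S100β-GFP+ cells and -1.27 for PSCs over NG2-dsRed+ cells, when the median of all genes was 0.04 and 0.02. Since every population enters more than one comparison, the counts are not independent of each other.

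**Figure D1:**
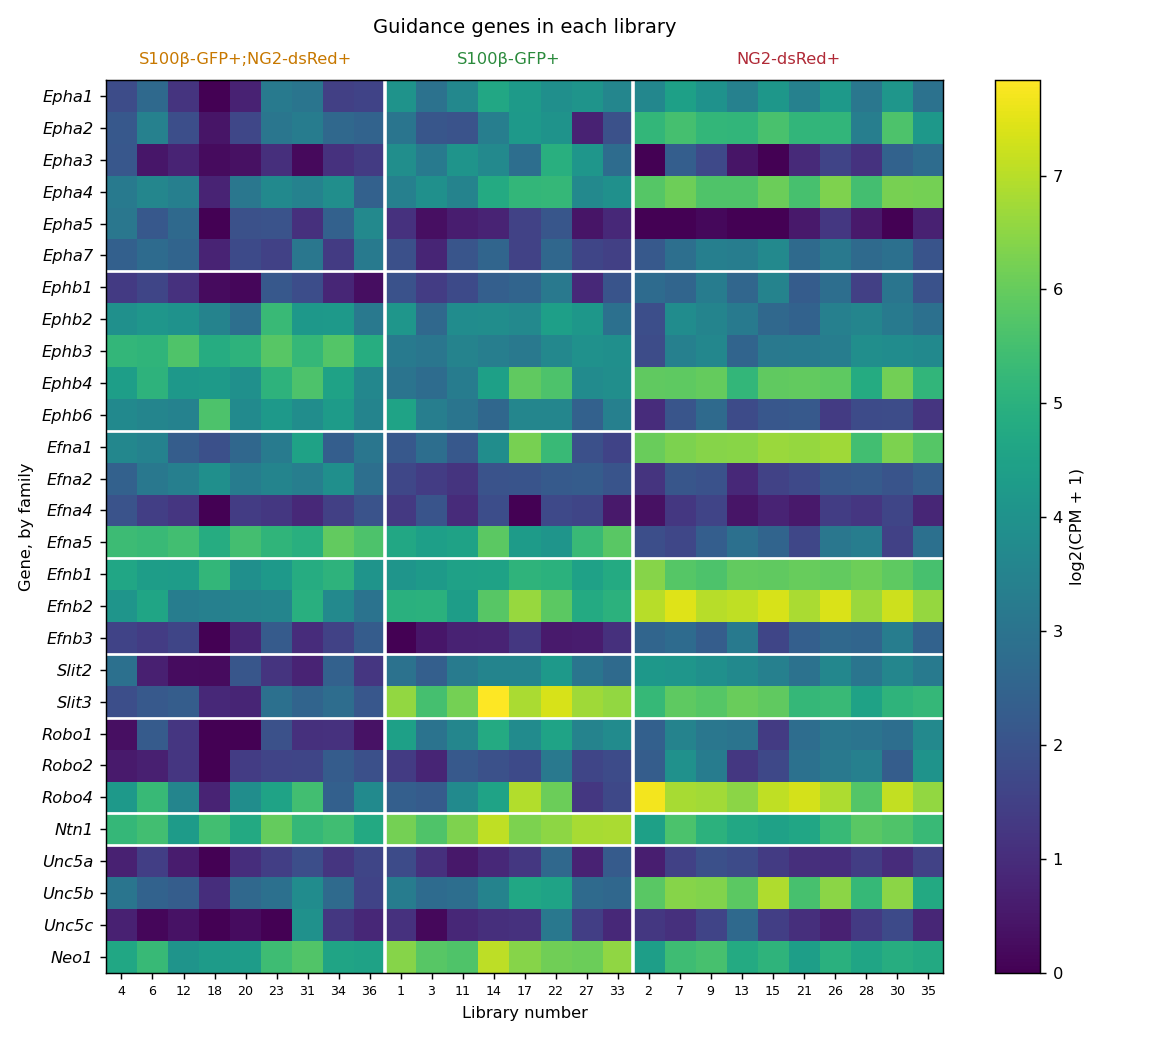
Heat map of the 28 tested genes (rows, grouped by family between white lines) in the 27 libraries (columns, numbered as in the labels), coloured by log2(CPM + 1). Slit3 is dark in the 9 PSC libraries (0.765 to 6.42 CPM) and bright in the 8 S100β-GFP+ libraries (45.1 to 228 CPM), and Efna1, Robo4 and Efnb2 are brightest among the NG2-dsRed+ libraries.

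**Figure D2:**
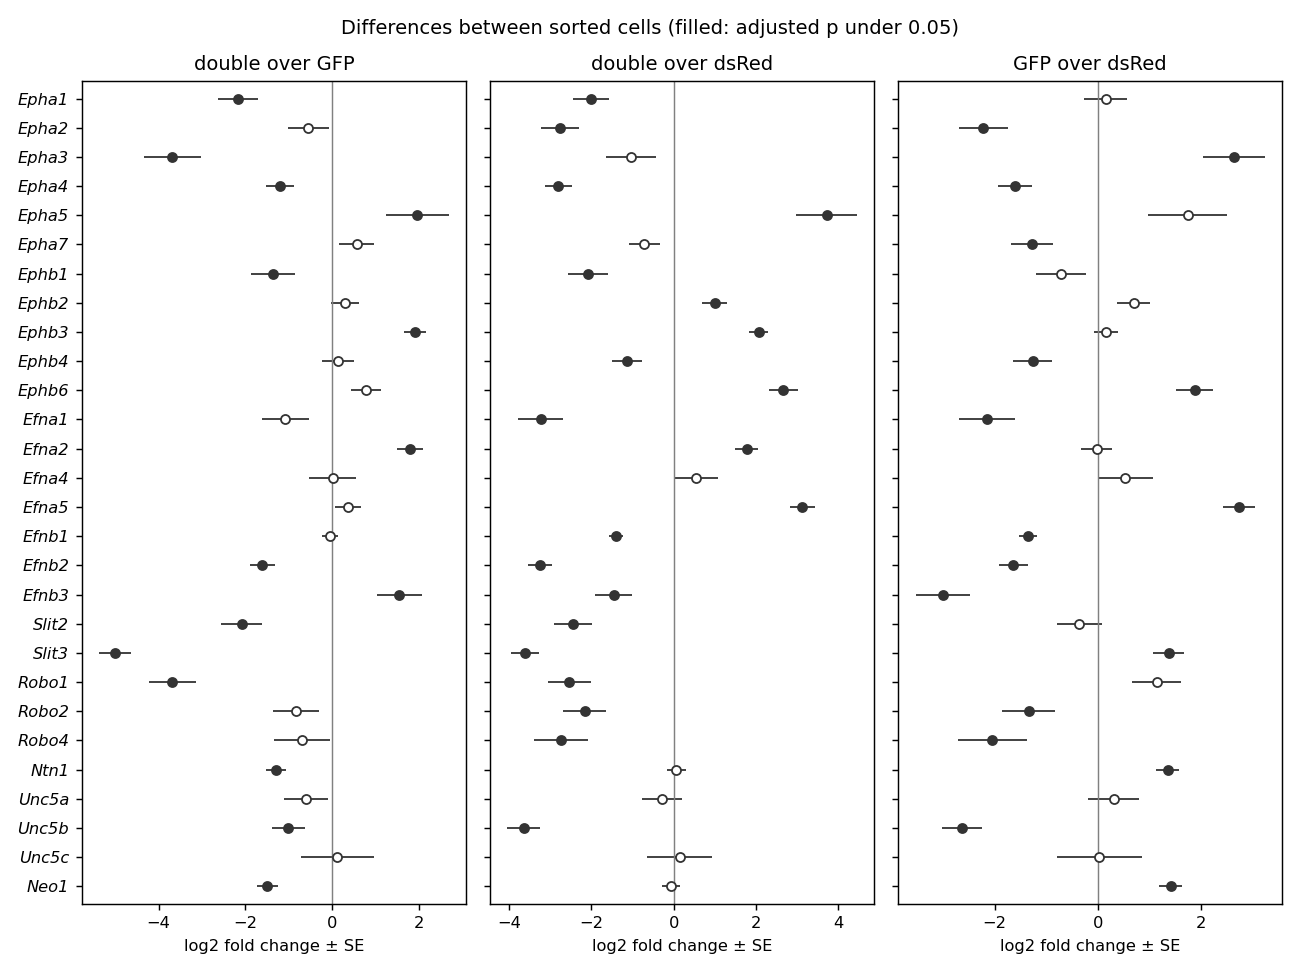
Log2 fold change with its standard error (x axis) for each tested gene (y axis) in the 3 comparisons, where double means PSCs, GFP means S100β-GFP+ cells and dsRed means NG2-dsRed+ cells. Filled points passed an adjusted p of 0.05, and most filled points lie left of 0 in the first 2 panels (11 of 15 and 15 of 21).

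For 23 of the 28 genes, some population stood apart from both others in the same direction. Each of these sets is given with the share of all genes that met the same condition. PSCs were above both others for 3 genes (13.9% of all genes) and below both for 8 (14.4%). S100β-GFP+ cells were above both for 4 (11.8%) and below both for 1 (5.91%), and NG2-dsRed+ cells were above both for 10 (8.44%) and below both for 2 (5.75%). As shares of the 28 genes tested these are 10.7%, 28.6%, 14.3%, 3.57%, 35.7% and 7.14%, and the widest gaps to the background were those of genes low in PSCs and of genes high in NG2-dsRed+ cells. Epha4, Efnb2 and Unc5b belong to both of these sets, so their gaps are not separate. The set low in PSCs held 5 genes in a fit without S100β-GFP+ libraries 14, 17 and 22.

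The genes highest in PSCs were Ephb3, Efna2 and Epha5. Ephb3, a kinase-active EphB receptor (chr16:21204755-21223305, GRCm38, plus strand), was at 27.9, 35.2 and 54.5 CPM (lowest, median and highest) in the 9 PSC libraries. It was at 7.37, 9.78 and 14.6 CPM in S100β-GFP+ cells and at 2.55, 9.43 and 13.5 CPM in NG2-dsRed+ cells. Every PSC library was thus above every other library. The log2 fold changes of PSCs were 1.90 ± 0.25 (SE) over S100β-GFP+ cells and 2.07 ± 0.23 over NG2-dsRed+ cells (edgeR adjusted p = 2.14e-07 and 1.56e-08). Complete separation of this kind was rare across the table: every PSC library was above every S100β-GFP+ library for 2 of the 28 genes (5.24% of all genes) and above every NG2-dsRed+ library for 4 (5.08%).

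Efna2 encodes ephrin-A2, a ligand tethered to the membrane by a GPI anchor. Its levels were 4.42, 9.15 and 14.0 CPM in PSCs, 1.25, 3.04 and 3.83 CPM in S100β-GFP+ cells, and 0.890, 3.02 and 4.20 CPM in NG2-dsRed+ cells, again without overlap between PSCs and the rest. The log2 differences were 1.79 ± 0.31 and 1.77 ± 0.28 (edgeR adjusted p = 1.69e-05 and 6.89e-06), and the other 2 populations differed by -0.02 ± 0.30. Epha5, an EphA receptor known mainly from neurons, was low and uneven. It ranged from 0 to 11.8 CPM in PSCs with a median of 3.43 CPM, from 0.250 to 3.29 CPM in S100β-GFP+ cells, and from 0 to 1.43 CPM in NG2-dsRed+ cells, so the groups overlapped. Its log2 fold changes were 1.96 ± 0.72 and 3.72 ± 0.74 (edgeR adjusted p = 0.0256 and 0.000128). The call against S100β-GFP+ cells was lost without PSC library 36, the highest (1.68, adjusted p = 0.0570), and when the fit held a term for the percent of a library's counts taken by 3 genes, Lars2, Gm23935 and Gm15564 (1.17, adjusted p = 0.267). In the fit of PSCs and NG2-dsRed+ cells alone Epha5 did not pass the filter on low counts and had no value, and without NG2-dsRed+ library 26 its difference from NG2-dsRed+ cells was 4.44. That percent was 3.64% to 36.6% in PSC libraries and 19.5% to 39.1% in S100β-GFP+ libraries.

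**Figure D3:**
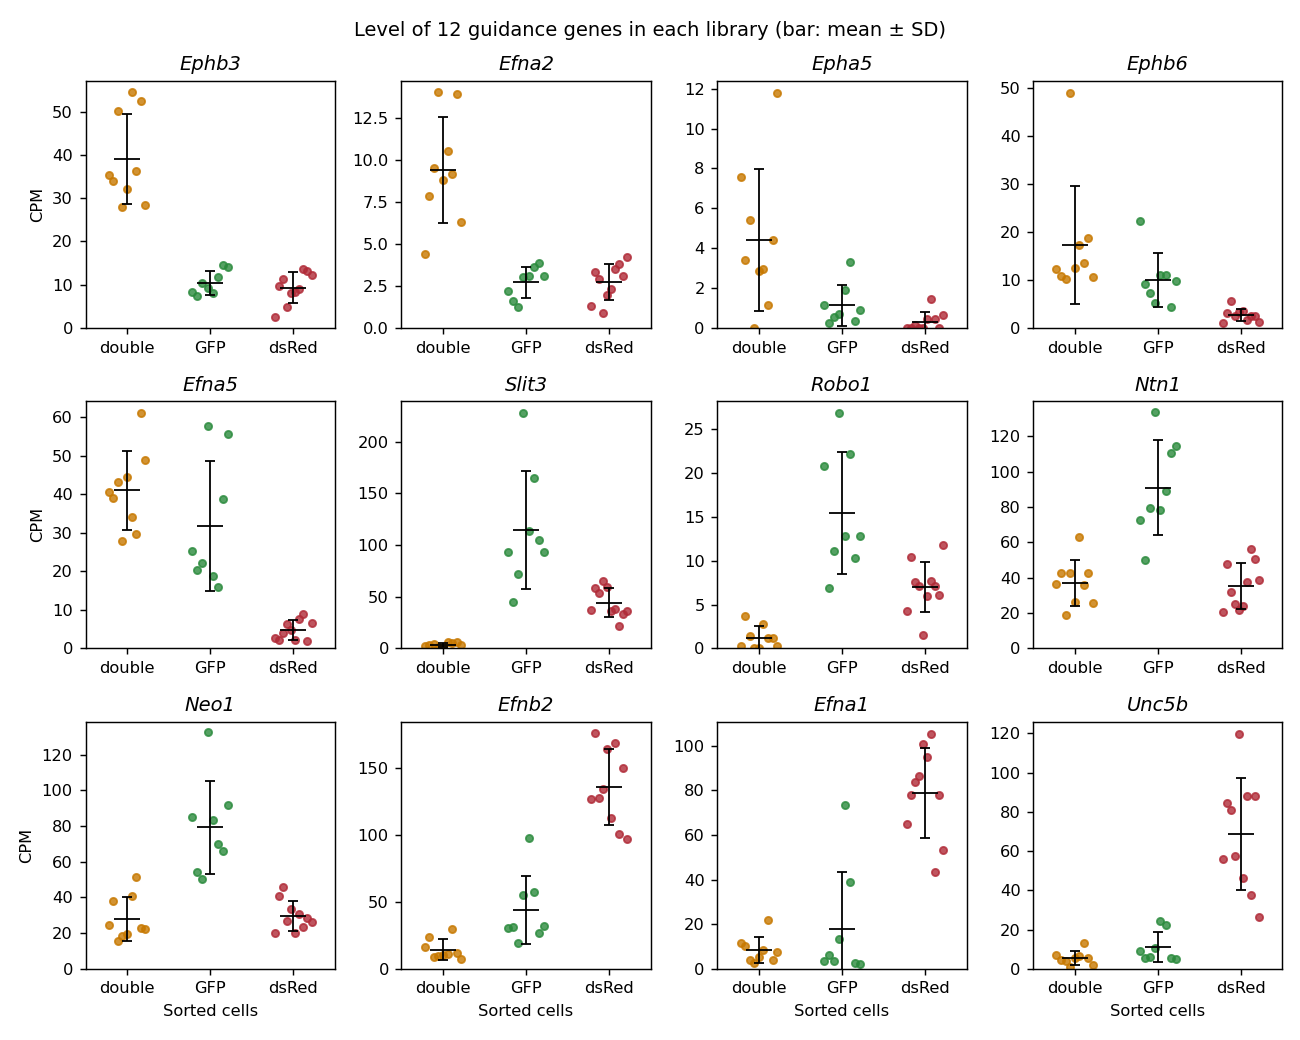
CPM (y axis, from 0) of 12 genes in each library, for PSCs (double, orange, 9 libraries), S100β-GFP+ cells (GFP, green, 8) and NG2-dsRed+ cells (dsRed, red, 10), with the mean and SD as black bars. The PSC points of Ephb3 and Efna2 lie above all others, those of Slit3 (3.53 CPM at the median) lie near 0, and the NG2-dsRed+ points of Efna5 (1.84 to 8.97 CPM) lie below all others.

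The sequences in front of these 3 genes are shown beside those of 3 genes that were highest in NG2-dsRed+ cells (Efnb2, Unc5b and Robo4), because the genes of each set shared the population in which they were highest. They come from RefSeq (GRCm38.p6), in which 29 of the 34 genes had a window, and each line ends at the last base before the first annotated transcript. Capitals mark matches on either strand to 4 short motifs: SOX (ACAAAG or ACAATG), ETS (CCGGAA), the GC box (GGGCGG) and the TATA box (TATAAA). The positions are chr16:21204545-21204754 (plus strand) for Ephb3, chr10:80179232-80179481 (plus) for Efna2, chr5:84417383-84417632 (minus) for Epha5, chr8:8661243-8661492 (minus) for Efnb2, chr10:60831582-60831831 (minus) for Unc5b and chr9:37401722-37401896 (plus) for Robo4.
Ephb3: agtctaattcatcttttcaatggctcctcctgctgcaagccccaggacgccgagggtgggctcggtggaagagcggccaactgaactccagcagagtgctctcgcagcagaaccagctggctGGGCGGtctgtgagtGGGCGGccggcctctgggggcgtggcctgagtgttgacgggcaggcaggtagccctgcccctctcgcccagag
Efna2: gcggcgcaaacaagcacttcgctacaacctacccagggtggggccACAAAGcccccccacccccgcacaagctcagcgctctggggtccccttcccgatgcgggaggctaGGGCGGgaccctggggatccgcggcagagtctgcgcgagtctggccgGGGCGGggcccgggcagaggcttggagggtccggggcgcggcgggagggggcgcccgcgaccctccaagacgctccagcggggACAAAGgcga
Epha5: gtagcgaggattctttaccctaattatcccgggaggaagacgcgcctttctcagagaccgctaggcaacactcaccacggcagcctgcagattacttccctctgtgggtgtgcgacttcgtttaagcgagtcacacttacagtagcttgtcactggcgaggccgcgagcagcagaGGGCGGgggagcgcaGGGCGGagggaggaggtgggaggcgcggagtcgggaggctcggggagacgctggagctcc
Efnb2: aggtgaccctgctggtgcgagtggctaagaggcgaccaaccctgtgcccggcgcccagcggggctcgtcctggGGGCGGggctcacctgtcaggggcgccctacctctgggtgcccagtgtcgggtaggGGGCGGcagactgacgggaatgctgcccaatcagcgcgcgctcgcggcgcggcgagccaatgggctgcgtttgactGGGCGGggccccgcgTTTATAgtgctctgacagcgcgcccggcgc
Unc5b: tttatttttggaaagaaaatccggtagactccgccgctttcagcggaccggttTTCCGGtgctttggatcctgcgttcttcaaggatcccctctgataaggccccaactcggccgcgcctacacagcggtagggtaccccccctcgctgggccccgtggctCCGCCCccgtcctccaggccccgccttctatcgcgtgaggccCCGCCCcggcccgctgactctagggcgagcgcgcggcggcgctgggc
Robo4: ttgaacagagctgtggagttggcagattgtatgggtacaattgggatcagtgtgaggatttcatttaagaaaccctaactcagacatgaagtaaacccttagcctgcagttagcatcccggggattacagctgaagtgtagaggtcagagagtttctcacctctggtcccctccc

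All 3 PSC-high genes had 2 GC boxes, and Efna2 also had 2 SOX matches. Efnb2 had 3 GC boxes and a TATA match, Unc5b had 2 GC boxes and an ETS match, and Robo4 had none of the 4 motifs. Over all 32851 windows of 250 bases, 32.7% held the GC box, 25.2% a SOX match, 12.0% the ETS letters and 12.4% the TATA letters, so each is common and a match is a description only. The windows differed more in CpG dinucleotides. Robo4 had 2 in 250 bases, whereas Ephb3 had 16, Epha5 20, Efna2 25, and Efnb2 and Unc5b 27 each, against a median of 6 over all windows. These counts cover the whole windows of 250 bases, of which the lines above show only 210 bases for Ephb3 and 175 for Robo4.

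Efna5 and Ephb6 were shared by PSCs and S100β-GFP+ cells and low in NG2-dsRed+ cells. Efna5, the gene of ephrin-A5 (chr17:62604184-62881317, minus strand), was at 27.9, 40.5 and 61.1 CPM in PSCs and at 16.0, 23.6 and 57.7 CPM in S100β-GFP+ cells. In NG2-dsRed+ cells it was at 1.84, 4.40 and 8.97 CPM, below every library of the other populations. PSCs were 8.69-fold above NG2-dsRed+ cells (log2 3.12 ± 0.30, edgeR adjusted p = 1.16e-09) and S100β-GFP+ cells 6.73-fold above them (2.75 ± 0.31, adjusted p = 2.50e-08), while PSCs and S100β-GFP+ cells differed by 0.37 ± 0.29 (adjusted p = 0.320). Ephb6 encodes an Eph receptor whose kinase domain is inactive. It was at 10.2, 12.5 and 49.1 CPM in PSCs, at 4.35, 9.45 and 22.3 CPM in S100β-GFP+ cells and at 0.993, 2.52 and 5.58 CPM in NG2-dsRed+ cells. Every PSC library was above every NG2-dsRed+ library (log2 2.66 ± 0.35, edgeR adjusted p = 3.25e-07), and S100β-GFP+ cells were also above them (1.89 ± 0.35, adjusted p = 9.78e-05). The highest PSC value belonged to library 18. PSCs over S100β-GFP+ cells gave 0.78 ± 0.35 (adjusted p = 0.0701), which passed the threshold without S100β-GFP+ library 1 (1.06), PSC library 12 (0.86) or PSC library 36 (0.85).

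Read as levels per kilobase of merged exons, which allows genes to be set side by side, the leading ligand differed between populations. In PSCs the highest median of the 34 genes was that of Efna5 (10.1 CPM per kb), followed by Ntn1 (5.84), Efnb1 (5.72) and Ephb3 (5.31). In S100β-GFP+ cells the order was Slit3 (16.4), Ntn1 (13.4), Neo1 (8.81) and Efnb1 (6.32). In NG2-dsRed+ cells it was Efna1 (44.2), Robo4 (21.4), Efnb2 (19.1) and Efnb1 (17.5). The library ranges of neighbours in each of these orders overlapped.

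Shares within a family, taken inside each library, do not depend on scaling between libraries. Efna5 made up 30.3% to 60.6% of the ephrin-A level per kilobase in PSCs and 0.995% to 7.78% in NG2-dsRed+ cells, where Efna1 made up 82.8% to 96.5%. In S100β-GFP+ cells Efna5 spanned 10.0% to 83.0% and Efna1 6.56% to 86.6%. Among EphB receptors the shares overlapped in PSCs, with Ephb3 at 19.1% to 49.4%, Ephb4 at 18.0% to 49.8% and Ephb6 at 16.7% to 59.1%. In NG2-dsRed+ cells Ephb4 held 60.7% to 88.6%. Neo1 held 62.6% to 92.7% of the netrin receptor level in PSCs and 16.3% to 39.0% in NG2-dsRed+ cells, where Unc5b held 54.0% to 81.6%. Among ephrin-B ligands Efnb1 held 59.3% to 88.0% in PSCs and Efnb2 12.0% to 35.5%, while in NG2-dsRed+ cells Efnb2 held 40.8% to 59.5%.

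**Figure D4:**
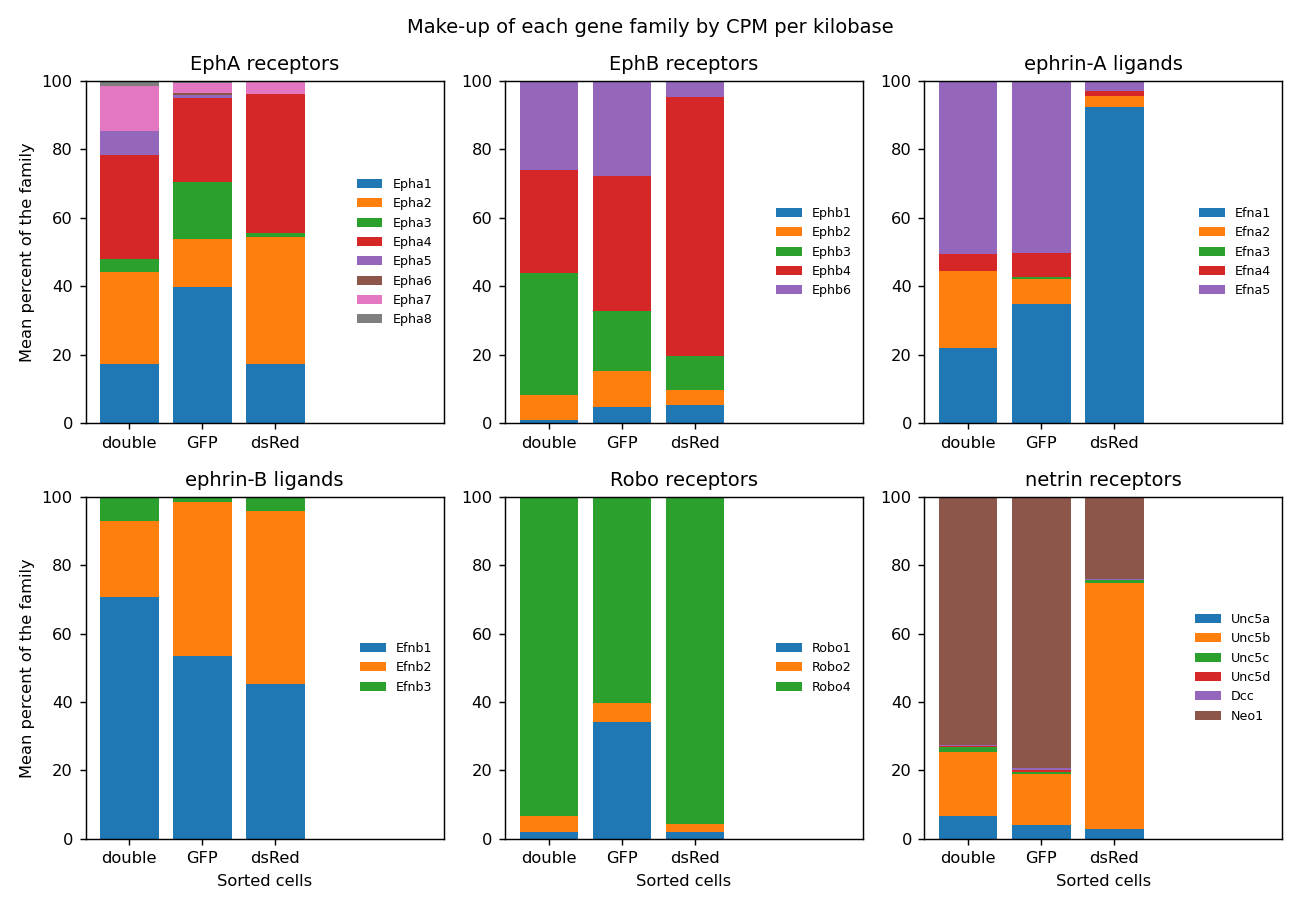
Mean share (percent, y axis) of each gene in its family by CPM per kilobase, for PSCs (double), S100β-GFP+ cells (GFP) and NG2-dsRed+ cells (dsRed), with colours naming the genes of each panel. Efna5 is the largest part of the ephrin-A bar in PSCs (median of the libraries 49.6%, and 60.1% in S100β-GFP+ cells). In NG2-dsRed+ cells that bar is almost wholly Efna1 (median 93.1%), and the netrin receptor bar passes from Neo1 to Unc5b.

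Of the 8 genes lowest in PSCs (Epha1, Epha4, Ephb1, Efnb2, Slit2, Slit3, Robo1 and Unc5b), Slit3 and Robo1 had the widest differences from S100β-GFP+ cells. Slit3, which encodes a secreted repellent (chr11:35121224-35708507, plus strand), was at 0.765, 3.53 and 6.42 CPM in PSCs, at 45.1, 99.4 and 228 CPM in S100β-GFP+ cells and at 21.9, 37.8 and 65.5 CPM in NG2-dsRed+ cells. All PSC libraries lay below all others. The level in PSCs was 32.0-fold below S100β-GFP+ cells (log2 -5.00 ± 0.37, edgeR adjusted p = 3.24e-12) and 12.3-fold below NG2-dsRed+ cells (-3.62 ± 0.34, adjusted p = 5.98e-10). Slit3 was also higher in S100β-GFP+ than in NG2-dsRed+ cells (1.38 ± 0.30, adjusted p = 0.000610). Fibroblast markers were highest in the same population as Slit3, and within it library 14 was highest (52406 and 228 CPM) and library 3 lowest (23952 and 45.1 CPM) for both. Within NG2-dsRed+ cells, library 28 had the highest fibroblast sum (24690 CPM) and the lowest Slit3 (21.9 CPM). The part of fibroblast markers in the Slit3 difference was not tested.

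Slit2, the other Slit with enough counts, was at 0.175, 1.25 and 6.39 CPM in PSCs, 4.12, 7.95 and 17.9 CPM in S100β-GFP+ cells and 6.80, 11.2 and 17.2 CPM in NG2-dsRed+ cells. The log2 differences of PSCs were -2.09 ± 0.47 from S100β-GFP+ cells and -2.45 ± 0.45 from NG2-dsRed+ cells (edgeR adjusted p = 0.000482 and 5.63e-05). Robo1, a receptor for Slits, followed the same order as Slit3. It was at 0, 1.14 and 3.73 CPM in PSCs, 6.87, 12.8 and 26.8 CPM in S100β-GFP+ cells and 1.58, 7.13 and 11.8 CPM in NG2-dsRed+ cells, with log2 differences of -3.68 ± 0.55 and -2.53 ± 0.52 for PSCs in the same order (edgeR adjusted p = 2.04e-06 and 0.000199). PSCs lay wholly below S100β-GFP+ cells for 3 of the 28 genes (Epha3, Slit3 and Robo1, 10.3% of all genes) and wholly below NG2-dsRed+ cells for 8 (8.83% of all genes).

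Epha1 and Ephb1 were also lowest in PSCs. Epha1, an Eph receptor found mainly in epithelia, was at 0, 2.00 and 8.45 CPM in PSCs, 6.75, 14.6 and 24.9 CPM in S100β-GFP+ cells and 6.79, 13.2 and 20.8 CPM in NG2-dsRed+ cells (log2 -2.17 ± 0.45 and -2.02 ± 0.44, edgeR adjusted p = 0.000233 and 0.000376). Its exons share bases with Zyx on the opposite strand, and since the use of strand in counting is not given, reads of the overlap cannot be told apart. The same holds for Ephb1, Ephb4, Efna4, Unc5a and Unc5c among the tested genes, each of which shares exon bases with an opposite-strand gene. Ephb1, which is low in every population, was at 0.0956, 1.15 and 3.44 CPM in PSCs, 0.871, 3.00 and 7.90 CPM in S100β-GFP+ cells and 1.83, 5.33 and 10.3 CPM in NG2-dsRed+ cells (-1.37 ± 0.51 and -2.08 ± 0.49, adjusted p = 0.0283 and 0.000942). Its call against S100β-GFP+ cells was lost without S100β-GFP+ library 22 (-1.08, adjusted p = 0.0909) or PSC library 36 (-1.20, adjusted p = 0.0503).

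Netrin-1 and its receptor neogenin were both highest in S100β-GFP+ cells. Ntn1 was at 50.0, 84.1 and 134 CPM there, at 18.7, 36.7 and 62.9 CPM in PSCs and at 20.7, 34.9 and 56.0 CPM in NG2-dsRed+ cells. PSCs were below S100β-GFP+ cells by -1.29 ± 0.23 (edgeR adjusted p = 3.81e-05) and differed from NG2-dsRed+ cells by 0.07 ± 0.22 (adjusted p = 0.835). Neo1 was at 50.4, 76.8 and 133 CPM in S100β-GFP+ cells, 15.8, 22.7 and 51.5 CPM in PSCs and 20.0, 27.7 and 45.9 CPM in NG2-dsRed+ cells. The log2 differences were -1.49 ± 0.23 for PSCs over S100β-GFP+ cells and 1.42 ± 0.23 for S100β-GFP+ over NG2-dsRed+ cells (edgeR adjusted p = 4.09e-06 and 9.71e-06), and every S100β-GFP+ library exceeded every NG2-dsRed+ library, as held for 7.21% of all genes. Epha3, an EphA receptor, was a further gene highest in S100β-GFP+ cells, at 5.77, 12.8 and 29.6 CPM against 0.143, 0.730 and 3.39 CPM in PSCs and 0, 1.65 and 5.82 CPM in NG2-dsRed+ cells. The log2 differences were -3.69 ± 0.66 for PSCs over S100β-GFP+ cells (edgeR adjusted p = 3.15e-05) and 2.65 ± 0.61 for S100β-GFP+ over NG2-dsRed+ cells (adjusted p = 0.000966). Fibroblast, macrophage and tendon markers, by the median of their sums, were also highest in this population.

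The 10 genes highest in NG2-dsRed+ cells included all 3 ephrin-B ligands. Efnb2, the ephrin-B2 gene known as an arterial marker (chr8:8617434-8661242, minus strand), was at 96.9, 131 and 176 CPM in NG2-dsRed+ cells, at 19.5, 31.5 and 97.4 CPM in S100β-GFP+ cells and at 6.95, 11.0 and 30.0 CPM in PSCs. PSCs were 9.52-fold below NG2-dsRed+ cells (log2 -3.25 ± 0.29, edgeR adjusted p = 2.67e-10) and 3.06-fold below S100β-GFP+ cells (-1.62 ± 0.29, adjusted p = 2.89e-05). S100β-GFP+ cells in turn were below NG2-dsRed+ cells (-1.64 ± 0.29, adjusted p = 3.78e-05), so that the 3 populations formed a graded order. Efnb1, which encodes ephrin-B1, was at 45.9, 60.5 and 84.7 CPM in NG2-dsRed+ cells, above every library of PSCs (14.1, 19.8 and 35.7 CPM) and of S100β-GFP+ cells (16.1, 21.8 and 33.6 CPM). The log2 differences were -1.41 ± 0.18 and -1.35 ± 0.18 (edgeR adjusted p = 1.25e-07 and 8.06e-07), and PSCs and S100β-GFP+ cells differed by -0.06 ± 0.18. Efnb3, the ephrin-B3 gene, was at 2.10, 4.85 and 8.91 CPM in NG2-dsRed+ cells, 0, 1.95 and 3.89 CPM in PSCs and 0, 0.607 and 1.42 CPM in S100β-GFP+ cells. It was the single gene lowest in S100β-GFP+ cells (1.55 ± 0.52 for PSCs over them, edgeR adjusted p = 0.0163, and -3.01 ± 0.53 for them over NG2-dsRed+ cells, adjusted p = 4.24e-05), and PSCs were below NG2-dsRed+ cells by -1.46 ± 0.45 (adjusted p = 0.00927).

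For the genes that follow, paired log2 differences are those of PSCs and of S100β-GFP+ cells over NG2-dsRed+ cells. The ephrin-A ligand of this set was Efna1, at 43.4, 80.8 and 105 CPM in NG2-dsRed+ cells, 2.80, 7.37 and 21.9 CPM in PSCs and 2.00, 4.80 and 73.3 CPM in S100β-GFP+ cells. NG2-dsRed+ cells were 9.40-fold above PSCs (log2 of PSCs over them -3.23 ± 0.55, edgeR adjusted p = 1.66e-05) and 4.45-fold above S100β-GFP+ cells (log2 -2.15, adjusted p = 0.00257; -2.98 without S100β-GFP+ library 17), while PSCs over S100β-GFP+ cells gave -1.08 ± 0.54 (adjusted p = 0.103). Leaving out a library took that last difference from -1.39 without PSC library 31 (adjusted p = 0.0365) to -0.25 without S100β-GFP+ library 17 (adjusted p = 0.698). Its receptor Epha2 was at 9.28, 35.0 and 49.2 CPM in NG2-dsRed+ cells, 0.350, 4.63 and 9.98 CPM in PSCs and 0.697, 5.25 and 17.5 CPM in S100β-GFP+ cells (-2.77 ± 0.47 and -2.22 ± 0.48, edgeR adjusted p = 1.53e-05 and 0.000500). Epha4, a receptor that binds both ephrin classes, was at 43.8, 60.0 and 79.7 CPM in NG2-dsRed+ cells, above every library of S100β-GFP+ cells (9.58, 14.3 and 36.4 CPM) and of PSCs (0.701, 9.49 and 13.7 CPM). Complete separation below NG2-dsRed+ cells held for 4 of the 28 genes in S100β-GFP+ cells (Epha4, Efnb1, Efnb3 and Unc5b, 4.38% of all genes). For Epha4 the paired differences were -2.81 ± 0.33 and -1.61 ± 0.33 (edgeR adjusted p = 4.04e-08 and 0.000244), and PSCs were below S100β-GFP+ cells as well (-1.20 ± 0.33, adjusted p = 0.00340). Ephb4, the venous partner of ephrin-B2 in blood vessels, was at 27.2, 58.9 and 71.3 CPM in NG2-dsRed+ cells, 11.5, 20.2 and 49.5 CPM in PSCs and 5.87, 13.3 and 59.1 CPM in S100β-GFP+ cells (-1.13 ± 0.36 and -1.26 ± 0.38, edgeR adjusted p = 0.0112 and 0.00979).

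Among receptors for secreted cues, Unc5b, a repulsive netrin receptor also known from endothelial tip cells, was at 26.2, 69.2 and 120 CPM in NG2-dsRed+ cells. It was at 5.10, 7.47 and 24.6 CPM in S100β-GFP+ cells and 1.05, 5.26 and 13.2 CPM in PSCs, with no overlap with NG2-dsRed+ cells (log2 -3.65 ± 0.40 and -2.63 ± 0.39, edgeR adjusted p = 9.94e-09 and 4.04e-06). PSCs were also below S100β-GFP+ cells (-1.01 ± 0.39, adjusted p = 0.0323). That call was lost without PSC library 12 (-0.93), 18 (-0.84), 20 (-0.97) or 36 (-0.86) and without S100β-GFP+ library 17 (-0.75) or 22 (-0.78). Robo4, the Robo receptor of vascular endothelium (chr9:37401897-37415115, plus strand), was at 52.2, 114 and 208 CPM in NG2-dsRed+ cells, 0.701, 13.3 and 42.9 CPM in PSCs and 1.39, 8.40 and 122 CPM in S100β-GFP+ cells (-2.74 ± 0.65 and -2.04 ± 0.67, edgeR adjusted p = 0.00104 and 0.0176). The last difference was -2.90 without S100β-GFP+ library 17. Robo2 was at 1.42, 7.35 and 15.2 CPM in NG2-dsRed+ cells, 0, 1.63 and 3.89 CPM in PSCs and 0.750, 2.40 and 7.90 CPM in S100β-GFP+ cells. Its difference from PSCs was -2.17 ± 0.51 (edgeR adjusted p = 0.000903), but that from S100β-GFP+ cells (-1.34 ± 0.52, adjusted p = 0.0457) missed the threshold in 17 of the 27 fits that left out a library (-1.36 to -1.13). These left out PSC library 4, 12, 20 or 36, S100β-GFP+ library 1, 3, 11, 14, 17, 27 or 33, or NG2-dsRed+ library 7, 9, 21, 26, 28 or 35.

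Several of these genes differed inside the S100β-GFP+ population between libraries 14, 17 and 22, which were high in endothelial markers, and the other 5. Other marker sums split the libraries in the same way: pericyte and smooth muscle markers were at 1004 to 1675 CPM in the 3 and 251 to 885 CPM in the other 5, and macrophage and leukocyte markers at 435 to 929 CPM and 2058 to 3285 CPM. The part of each in the values below was not tested. Robo4 was at 22.6, 122 and 67.1 CPM in S100β-GFP+ libraries 14, 17 and 22 and at 1.39 to 12.6 CPM in the other 5, and Efna1 was at 13.2 to 73.3 CPM against 2.00 to 6.12 CPM. Epha2, Epha4, Ephb1, Ephb4, Efnb2, Unc5b, Slit2 and Slit3 were likewise higher in each of those 3 libraries than in any of the other 5. Without the 3 libraries, Efna1 and Robo4 changed sign, with PSCs above S100β-GFP+ cells (log2 1.25 and 1.93, edgeR adjusted p = 0.00996 and 0.00912). Ephb4 passed the test in the same direction (1.38, adjusted p = 0.000678), and the lower levels of Epha4 (-0.43, adjusted p = 0.303), Ephb1 (-0.65, adjusted p = 0.376) and Unc5b (-0.15, adjusted p = 0.782) in PSCs no longer passed. The 10 genes highest in NG2-dsRed+ cells all remained so.

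Set against the endothelial sum of the same library, Efna1 was at 17.4 to 29.8 CPM per 1000 CPM of endothelial markers in NG2-dsRed+ cells, 12.9 to 25.9 in S100β-GFP+ cells and 8.34 to 27.7 in PSCs, which overlapped. Robo4 gave medians of 34.9, 21.3 and 42.7 in the same order, also with overlap. NG2-dsRed+ cells and PSCs overlapped as well for Epha2 (medians 10.6 and 11.2), Epha4 (18.6 and 19.4), Efnb2 (43.9 and 37.8) and Unc5b (22.3 and 13.5). The same held for Efnb3 (1.59 and 4.39) and Robo2 (2.13 and 2.85). Efnb1 (18.2 and 43.6) overlapped narrowly, at 14.1 to 38.1 in NG2-dsRed+ cells and 33.7 to 216 in PSCs. In S100β-GFP+ cells the medians were 45.8 for Epha4, 106 for Efnb2, 78.0 for Efnb1 and 6.17 for Robo2, above both of those populations. They were 11.1 for Epha2, 25.3 for Unc5b and 1.14 for Efnb3. For Ephb4 the ratio was 11.6 to 21.8 in NG2-dsRed+ cells and 35.8 to 111 in PSCs, without overlap and higher in PSCs. In S100β-GFP+ cells the Ephb4 ratio was 18.1 to 94.1. The ratio of Efna5 was 0.497 to 5.01 in NG2-dsRed+ cells, 5.71 to 381 in S100β-GFP+ cells and 37.4 to 236 in PSCs.

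**Figure D5:**
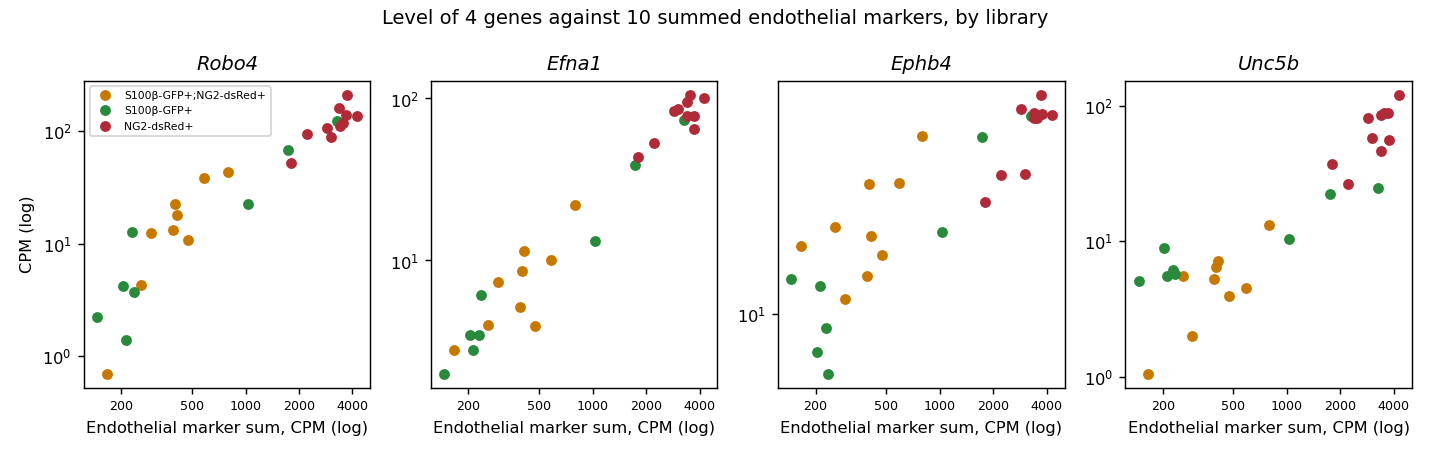
CPM of Robo4, Efna1, Ephb4 and Unc5b (y axis, log) against the summed CPM of 10 endothelial markers in the same library (x axis, log), with a point per library for PSCs (orange), S100β-GFP+ cells (green) and NG2-dsRed+ cells (red). The 3 green points at 1027 to 3272 CPM of endothelial markers (libraries 14, 17 and 22) are also the highest green points for each of the 4 genes.

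In the other 5 tested genes no population stood apart from both others, and Ephb2 and Epha7 each passed in 1 comparison. Ephb2, an EphB receptor with an active kinase, was at 15.9 ± 9.40 CPM (mean ± SD, n = 9) in PSCs, 12.9 ± 5.12 CPM (n = 8) in S100β-GFP+ cells and 7.96 ± 3.23 CPM (n = 10) in NG2-dsRed+ cells, and PSCs were above the last by 0.99 ± 0.31 (edgeR adjusted p = 0.00938). Epha7 was at 4.14 ± 2.72, 2.81 ± 1.54 and 6.85 ± 2.72 CPM in the same order and differed between S100β-GFP+ and NG2-dsRed+ cells (-1.28 ± 0.41, adjusted p = 0.0151). Efna4 (1.12 to 1.65 CPM as means) and Unc5a (1.31 to 2.01 CPM) passed in no comparison. Unc5c had means of 2.03 ± 4.79, 1.84 ± 2.42 and 1.81 ± 1.35 CPM, and its mean in PSCs rested on library 31 at 14.7 CPM, since the other 8 were at 1.43 CPM or less. Tendon and cartilage markers summed to 825 CPM in that library, the highest of the PSC libraries, whose median was 17.5 CPM. Without it the fold changes of PSCs were -2.00 over S100β-GFP+ cells and -1.97 over NG2-dsRed+ cells (edgeR adjusted p = 0.0168 and 0.0157).

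The remaining 6 genes had too few counts to be tested. Epha6 had 0 counts in all 9 PSC libraries, which allows up to 0.0380 CPM (3 counts over the cell type), with 25 counts in S100β-GFP+ and 6 in NG2-dsRed+ cells. Epha8 had counts of 1, 18 and 1 in PSC, S100β-GFP+ and NG2-dsRed+ libraries, and Efna3 of 7, 10 and 10. Slit1 had 11, 42 and 16 counts, Unc5d 10, 31 and 16, and Dcc, the classical netrin receptor of commissural axons, 7, 34 and 10. No test of differences between populations is given for these genes. Of the 34 counts of Dcc in S100β-GFP+ cells, 22 lay in library 22. The same library held 17 of the 25 counts of Epha6, 15 of the 18 of Epha8, 25 of the 42 of Slit1 and 17 of the 31 of Unc5d.

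Other genes of the same pathways were read from 2 lists. Of 18 further family members, ligands and co-receptors, 17 were in the table and 11 tested, of which 4 rose and 4 fell in PSCs relative to S100β-GFP+ cells, and 5 rose and 4 fell relative to NG2-dsRed+ cells. Of all genes, 22.9% rose and 24.1% fell in the first comparison, and 20.9% and 23.1% in the second. Ntng1, a netrin relative anchored to the membrane, was at 35.6, 134 and 324 CPM in PSCs and at most 4.35 and 13.0 CPM in the other populations (log2 5.56 and 4.89). Dag1, the gene of dystroglycan, which also binds Slits, was at 2287, 2798 and 3656 CPM in PSCs against at most 428 and 419 CPM (3.40 and 3.03). Flrt3, a co-receptor of Robo1 and a ligand of Unc5 receptors, was lowest in NG2-dsRed+ cells, at 1.25 to 5.11 CPM against 51.1 to 105 CPM in PSCs and 28.8 to 185 CPM in S100β-GFP+ cells.

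Of 37 cytoplasmic partners of these receptors, 34 were tested, and PSCs were above S100β-GFP+ cells for 9 and below them for 13, with 9 and 15 against NG2-dsRed+ cells, beside the same 22.9% and 24.1%, and 20.9% and 23.1%, of all genes. The 3 that stood farthest apart did so outside PSCs. Dapk1, a death-associated kinase that binds Unc5 receptors, was at 85.1 to 168 CPM in S100β-GFP+ cells and at most 10.6 CPM in PSCs and 21.5 CPM in NG2-dsRed+ cells. Pak1, a kinase acting behind Rac and Cdc42, was at 6.35 to 39.9 CPM in S100β-GFP+ cells against at most 3.15 and 2.43 CPM. Grip2, a PDZ scaffold of ephrin-B ligands, was at 18.4 to 51.8 CPM in NG2-dsRed+ cells against at most 11.2 CPM in PSCs and 10.5 CPM in S100β-GFP+ cells.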

How the data were processed

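RNA of the 3 sorted populations was measured by RNA-seq after PicoPure isolation and SMART-Seq v4 amplification. The authors used HISAT2 for alignment and HTSeq for counting, and deposited whole-number counts per gene, not normalized. GRCm38 is named in the submitters' processing notes. For tool versions and the strand setting, the sources used here give nothing. Of 36 labelled libraries, 27 had a column and were used, including 8 S100β-GFP+ columns, 1 more than the series' design text counts. The study's methods report that samples judged to have failed on pairs plots were taken out. Which of the 8 S100β-GFP+ columns the authors left out is not stated, so 1 library used here may be among those they removed. All 109 replicate pairs differed by more than sampling noise (chi-square of 8.92 or more per degree of freedom). Labels name no batch.

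Counts were analysed in R 4.3.3 with edgeR 4.0.16: filterByExpr (minimum count 10), TMM scaling, 1 quasi-likelihood fit of all populations and Benjamini-Hochberg adjustment at 0.05. DESeq2 1.42.0 and limma 3.58.1 (voom) served as alternatives. The fits were tested on simulated data. Gene positions and merged exon lengths came from GENCODE M21 (GRCm38), which holds 99.7% of the identifiers. Merged exons can exceed the transcript in use, so levels per kilobase are approximate. Floors (3 counts over a cell type) cover counting error only. All 34 genes are accounted for. Those for which 1 population differed from both others are given by their lowest, median and highest library, and the other genes of each pathway list by counts and its 3 farthest apart. The members, lists, and the libraries and terms of the alternatives were chosen with earlier results of these data known.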

Additional observations from a re-analysis of the deposited data

Results flagged for a closer look

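Libraries far from the others were sought with Dixon's criterion on log2 levels (prior count 2), where chance alone marks about 1 group in 20. Of 84 groups of libraries (28 genes in 3 populations), 5 held such a library. PSC library 18 accounted for 3 of them: it had the lowest Epha4 (0.701 CPM, next 4.42), the highest Ephb6 (49.1 CPM, next 18.8) and the lowest Efna4 (0 CPM, next 0.858). Muscle fibre markers summed to 1344 CPM in that library, the highest of the PSC libraries, whose median was 374 CPM, and their part in these values was not tested. PSC library 31 had the highest Unc5c (14.7 CPM, next 1.43), beside the highest tendon and cartilage sum of the PSC libraries (825 CPM). NG2-dsRed+ library 15 had the lowest Robo1 (1.58 CPM, next 4.26).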

How the results depend on the processing

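The 28 tested genes were refitted under 7 alternatives and without each of the 27 libraries. Genes of the 2 pathway lists are not among the values given here. Of 582 fold changes of single genes under the 7 alternatives, 555 stayed on the same side of the threshold, with direction kept where they passed it. Of 2268 without a library, 2229 did. Changes of sign among values that passed in neither fit are not counted as changes here. Ephb3 and Efna2 stayed higher in PSCs than in both others, and Slit3, Slit2, Robo1, Epha1 and Efnb2 lower, in all of them. Reversed values for PSCs over S100β-GFP+ cells were those of Efna1 (1.25) and Robo4 (1.93) without S100β-GFP+ libraries 14, 17 and 22, and of Unc5c with DESeq2 (-1.89) and without PSC library 31 (-2.00). Over NG2-dsRed+ cells Unc5c reversed with DESeq2 (-1.78), limma-voom (-1.45) and without PSC library 31 (-1.97). Across the fits without a library Unc5c ran from -2.00 to 1.00 and from -1.97 to 0.49. With DESeq2 and voom the cause was not tested.

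Without S100β-GFP+ libraries 14, 17 and 22, 7 members in place of 4 were above S100β-GFP+ cells in PSCs, 5 in place of 8 were lower in PSCs than in both others, and 4 in place of 1 were lower in S100β-GFP+ cells than in both others. The shares of all genes that met these conditions in that refit are not given, so its counts have no background beside them. The count of members lowest in S100β-GFP+ cells was 0 when each fit held only the cell types compared, because Efnb3 did not pass the filter on low counts in the fit of PSCs and S100β-GFP+ cells and had no value there. Epha5 had none in the fit of PSCs and NG2-dsRed+ cells for the same reason, which left 2 members higher in PSCs than in both others. Counts of members apart from both others were added after seeing the data. With no filter on low counts, 16556 genes in place of 7198 were called for PSCs against S100β-GFP+ cells, and 10586 in place of 5099 for S100β-GFP+ against NG2-dsRed+ cells, of 44705 genes tested in place of 15330.

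Leaving out a library gave 6825 to 7918 genes for PSCs against S100β-GFP+ cells, 6315 to 7412 against NG2-dsRed+ cells and 4617 to 5940 for S100β-GFP+ against NG2-dsRed+ cells. In PSCs, 4 to 5 members were above and 9 to 13 below S100β-GFP+ cells, against NG2-dsRed+ cells 6 to 6 and 15 to 16, and in S100β-GFP+ over NG2-dsRed+ cells 6 to 8 and 10 to 11. Members higher and lower than both others numbered 3 to 4 and 6 to 10 in PSCs, 4 to 5 and 1 to 1 in S100β-GFP+ cells, and 9 to 10 and 2 to 3 in NG2-dsRed+ cells. The highest count lower in PSCs (10) came without PSC library 31.

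Other calls depended on the fit. Ephb1 and Unc5b, lower in PSCs than in S100β-GFP+ cells, were lost with only these cells in the fit (-1.38 and -1.03), with limma-voom (-1.23 and -0.56) and with the share of Lars2, Gm23935 and Gm15564 as a term (-0.62 and -0.43). With that term Ephb4 in PSCs against NG2-dsRed+ cells was lost as well (-0.70). Robo1 in S100β-GFP+ over NG2-dsRed+ cells (1.15, adjusted p = 0.0656) passed with DESeq2 (1.21), limma-voom (1.08), only these cells in the fit (1.16) and without PSC library 6, 18 or 20 or NG2-dsRed+ library 35, and Robo2 was lost with DESeq2 size factors (-1.28). Among S100β-GFP+ over NG2-dsRed+ differences not called in the report, Epha5 passed under 3 alternatives and without PSC library 18 (1.78) or NG2-dsRed+ library 26 (2.48), Ephb2 without S100β-GFP+ library 3 (0.82) and Ephb1 with limma-voom (-1.23). Epha7 in PSCs against NG2-dsRed+ cells passed with limma-voom (-0.84), and Ephb6 in PSCs over S100β-GFP+ cells with the share as a term (1.21). No paired analysis was possible because each library has a number of its own, so that the populations share none. The sources used here do not say whether libraries of different populations came from the same mouse, and the fits treat all libraries as independent. Genes of a few CPM rest on few counts, which limits Epha5, Ephb1, Efna4, Unc5a and the 6 genes not tested.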
